A study of Drosophila melanogaster with 2 samples.

Results

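Pericentromeric heterochromatin is the repeat-rich, compact chromatin that flanks the centromeres of each chromosome. In *Drosophila melanogaster* it is packed with transposable elements and simple repeats, and it carries HP1 and methylated histone H3 lysine 9. A small number of genes lie in it, many of them with long introns, and some of these genes need the heterochromatic setting for their normal expression. Peaks of CG12768, a MADF-domain protein of the same kind as the transcription factor Adf1, were examined in this part of the genome.

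The peaks came from chromatin immunoprecipitation with sequencing in whole adult male flies of 1 transgenic line, which stably expresses CG12768 fused to GFP at its C terminus. The age of the flies is unknown per the labels, DNA was sonicated to 200-800 bp, and the fusion protein was recovered with an antibody against GFP. There was 1 group with 2 biological replicates, so nothing could be compared between conditions, and whole flies mix all tissues. Intervals given below are 95% Wilson intervals over peaks or genes, which cover counting error only and do not measure the spread between flies. Neither the promoter that drives the fusion protein nor the site of its insert is given in the labels used here.

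A peak was taken as pericentromeric where its summit lay above position 22000000 of 2L, above 22900000 of 3L, below 4200000 of 3R or above 22400000 of X in dm6. These limits select by position and use no measured value. Of 30000 peaks in the list that the authors pooled from both replicates, 151 qualified, with 47 on 2L, 51 on 3L, 12 on 3R and 41 on X. That pooled list includes background by design, since it served as input to a threshold on reproducibility between replicates. The authors' thresholded list kept 14 of the 151 peaks, of which 9 were on 3L, 2 on 2L, 2 on X and 1 on 3R. This is 9.27% of the peaks (5.60 to 15.0), beside 20.2% of the whole pooled list and 20.3% of the pooled peaks outside the spans (19.8 to 20.7). On chromosome 4 it was 11.4% of 219 pooled peaks (7.85 to 16.3), so a low share was not particular to the spans. Library depth is unknown, because peak lists carry no counts of reads.

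Taken as a whole, the reference sequence of the 4 spans had the features of heterochromatin, whereas no chromatin mark was measured. Soft-masked repeats covered 40.4% of the spans and 17.5% of the rest of the same arms, and annotated transposable elements covered 15.4% and 4.01%. Genes with a protein-coding start numbered 10.9 per Mb in the spans and 114 per Mb in the rest of the arms. Words of 50 bases that occur once in the reference made up 47.1% of the spans and 94.6% of the rest. The spans were not uniform. The first 100 kb inside the limits had 85.0% such words and 72.5 genes per Mb, beside 40.3% and 3.60 beyond 1000 kb. Transposable elements covered 23.1% of those first 100 kb and 9.01% beyond 1000 kb.

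The sequence at the summit is shown for the thresholded peaks whose 150 bp window overlapped no annotated UTR, because these include the 4 highest signals of the set, and for the 2 strongest peaks that lay in a transposable element. All are on the plus strand of the dm6 reference, and capitals mark every GAGAG or CTCTC. The windows are 3L:22945330-22945479 upstream of Mes2, 3L:22909390-22909539 upstream of CG12768, 3L:22948300-22948449 and 3L:22948689-22948838 in an intron of Mes2, 3L:22943646-22943795 farther upstream of Mes2, X:22490964-22491113 in an intron of l(1)G0196, 3L:23001156-23001305 in an FB element within nrm, and 3L:23085373-23085522 in an Fw3 element.
Mes2 upstream: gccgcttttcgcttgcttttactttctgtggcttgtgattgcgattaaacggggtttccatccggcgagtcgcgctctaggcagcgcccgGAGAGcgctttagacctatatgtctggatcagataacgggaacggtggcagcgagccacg
CG12768 upstream: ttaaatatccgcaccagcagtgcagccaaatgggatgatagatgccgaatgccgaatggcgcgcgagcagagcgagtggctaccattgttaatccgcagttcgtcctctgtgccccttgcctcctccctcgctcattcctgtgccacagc
Mes2 intron, first summit: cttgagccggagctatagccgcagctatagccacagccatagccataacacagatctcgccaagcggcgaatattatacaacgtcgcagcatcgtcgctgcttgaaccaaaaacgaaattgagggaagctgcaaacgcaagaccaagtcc
Mes2 intron, second summit: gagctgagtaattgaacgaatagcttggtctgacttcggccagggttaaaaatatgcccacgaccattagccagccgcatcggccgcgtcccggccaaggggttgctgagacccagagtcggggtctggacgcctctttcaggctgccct
Mes2 far upstream: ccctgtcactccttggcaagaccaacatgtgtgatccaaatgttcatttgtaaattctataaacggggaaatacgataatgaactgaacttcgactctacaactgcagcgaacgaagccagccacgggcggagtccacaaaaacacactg
l(1)G0196 intron: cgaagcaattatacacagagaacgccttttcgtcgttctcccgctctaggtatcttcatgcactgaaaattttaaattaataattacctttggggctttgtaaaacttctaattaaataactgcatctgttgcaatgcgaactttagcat
FB element in nrm: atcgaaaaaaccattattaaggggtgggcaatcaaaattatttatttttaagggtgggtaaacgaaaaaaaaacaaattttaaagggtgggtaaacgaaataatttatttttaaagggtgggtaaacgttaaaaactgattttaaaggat
Fw3 element: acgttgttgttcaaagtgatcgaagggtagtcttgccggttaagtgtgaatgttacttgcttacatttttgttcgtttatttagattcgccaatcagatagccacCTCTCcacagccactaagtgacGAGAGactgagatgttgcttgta
Capitals occur in the window upstream of Mes2 and in the Fw3 window, and the other 6 windows hold no such word. The 4 windows with the highest signals had 51.3% to 58.7% GC, the l(1)G0196 window 36% and the FB window 28%.

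The strongest peaks lay at Mes2 and CG12768, neighbouring genes on 3L just inside the outer limit of the span. Mes2 encodes a MADF-domain transcription factor, the same domain family as CG12768 itself. The peak upstream of Mes2 had its summit 252 bp before the start and a signal of 622.5, which ranked 450 of the 30000 pooled peaks. The overlapping peak had a signal of 435 in replicate 1 and 193 in replicate 2. A second summit 47 bp before the Mes2 start had 292, and one 1936 bp before it had 152, with 109 in replicate 1 and 38.7 in replicate 2. Inside the Mes2 gene, one peak interval held a pair of intronic summits, 2718 and 3107 bp past the same start, with signals of 468 and 395. The replicate peak that overlaps both had 222 in replicate 1 and 232 in replicate 2. These 5 thresholded summits were present in both replicates, although summits in one interval share their reads. Another 4 pooled summits lay in the gene or nearest to it, each in the list of 1 replicate only, with signals of 48.8 to 80.1. Signal is the authors' value per peak, and it only orders and describes peaks of the same list.

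CG12768, the gene that encodes the tagged protein, had 3 thresholded summits. The highest lay 1026 bp before the first start, in an exon of the long noncoding RNA gene lncRNA:CR45661, with a pooled signal of 556, 265 in replicate 1 and 298 in replicate 2. The summits 85 and 329 bp past the same start, the latter 13 bp before another start, had 238 and 173 and shared one replicate peak of 149 in replicate 1 and 94.1 in replicate 2. The transgene encodes this protein, and how much of the locus it holds is not stated in the labels used here. Within the body of CG12768 the pooled list held 5 summits, the replicate 1 list 8 and the replicate 2 list 2. Within 50 kb of the gene and inside the span lay 18 of the 151 peaks and 8 of the 14 thresholded ones. On the other side of the limit, the same reach of 50 kb held 25 pooled peaks and 9 thresholded ones. Without the peaks inside that reach, 6 thresholded peaks remained of 133, or 4.51% (2.08 to 9.49). The part of the transgene in these peaks was not tested.

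The other 6 thresholded peaks lay on all 4 arms, 5 of them at promoters. On X a summit 32 bp past the start of CG14615 and within 500 bp of tilB, which is needed for ciliary motility in sensory neurons and sperm, had a signal of 290. Its replicate values were 190 and 111. On 2L a summit 495 bp past the start of Clamp, a zinc-finger protein that brings the dosage compensation complex to the X chromosome, had 195, with 103 in replicate 1 and 101 in replicate 2. The peak 16 bp past the start of RpL5, a protein of the large ribosomal subunit, had 145, with 73.2 and 71.2 in the replicates. On 3L the peak 40 bp past the start of RpL10, another large-subunit protein, had 180 but overlapped a peak in replicate 2 alone, where its signal was 99.9. On 3R a peak 4 bp past the start of beta-Man, which encodes a beta-mannosidase, had 150, with 102 in replicate 1 and 57.6 in replicate 2. The remaining peak was in an intron of l(1)G0196 on X, 556 bp before another of its starts, with 146 in the pooled list, 56.5 in replicate 1 and 100.1 in replicate 2. Of these 6 peaks 5 were thus listed in both replicates, whose signals have no stated common scale.

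Of the 14 thresholded summits, 13 overlapped peaks of both replicates, beside 98.5% of the thresholded peaks elsewhere. The thresholded list was selected for reproducibility between these replicates, so such overlap is largely set in advance, also for the peaks described above. Counting summits within 1 kb of each other once, the 14 summits fell into 11 loci, and the 151 members into 118. The median signal of the 14 was 217, beside 223 for the thresholded peaks elsewhere. The lowest thresholded member was RpL5 at 145, and the highest member outside the thresholded list was a UTR summit of FucTC, a fucosyltransferase gene, at 135. The 137 members outside the thresholded list ranged from 41.2 to 135 with a median of 54.9.

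**Figure D1:**
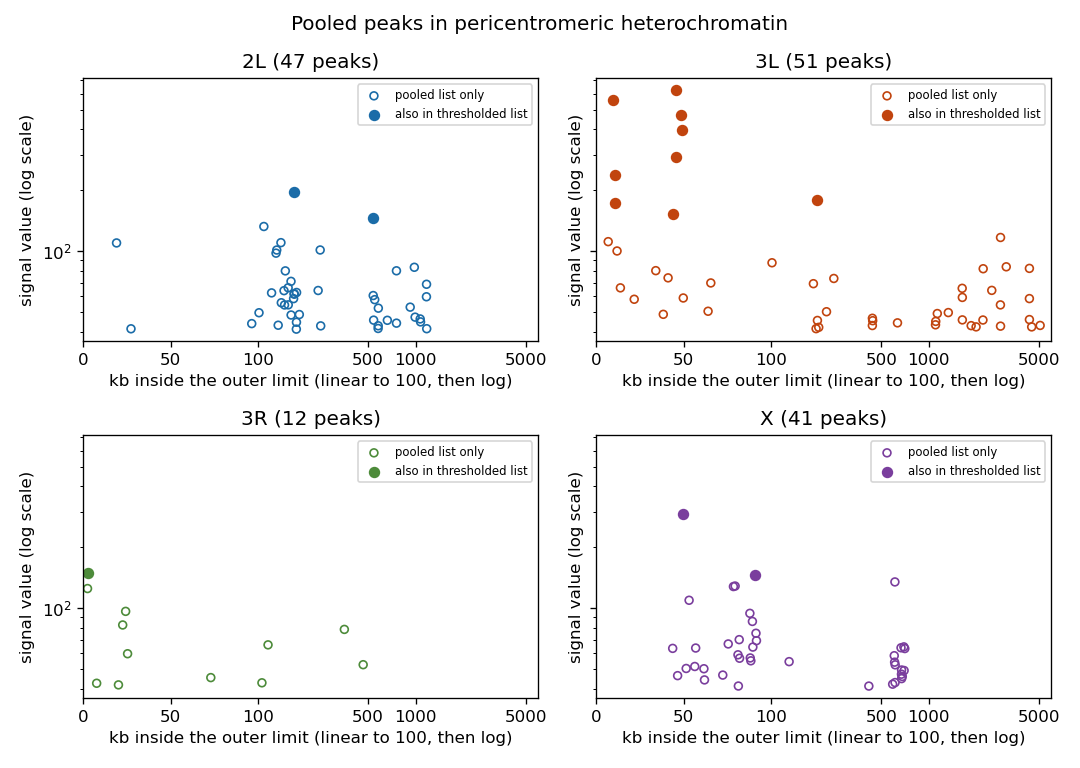
Signal value of each of the 151 pooled peaks on a log scale, against its distance in kb inside the outer limit of the span, with 1 panel for each arm. Filled points are the 14 peaks that are also in the thresholded list, of which 11 lie in the first 100 kb, and open points are in the pooled list only.

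Peaks were crowded at the outer edge of the spans. The first 100 kb inside the limits, 0.4 Mb over the 4 arms, held 54 of the 151 peaks (35.8%) and 11 of the 14 thresholded ones. One locus on 3L, the 50 kb around CG12768 that include Mes2, gave 18 of these 54 peaks and 8 of the 11 thresholded ones. Density there was 135 pooled peaks per Mb, close to the 144.5 per Mb of the 500 kb just outside the limits, to which X added none. It was 26.9 per Mb from 100 to 500 kb, 14.0 per Mb from 500 to 1000 kb and 3.22 per Mb beyond 1000 kb. Thresholded peaks followed with 27.5, 1.25, 0.50 and 0 per Mb. Genes fell over the same zones, with 72.5, 23.1, 18.0 and 3.60 per Mb. Words that occur once in the reference made up 85.0%, 68.6%, 49.9% and 40.3%. The parts of gene density and of such words in the fall of peak density were not tested. Without the peaks around CG12768 the first 100 kb held 90.0 pooled and 7.50 thresholded peaks per Mb, the latter from 3 peaks. Median signal was 63.5 in the first 500 kb, 50.9 from 500 to 1000 kb and 47.7 deeper. RpL5 was the only gene with a thresholded peak more than 500 kb inside a limit. On 3R all 12 pooled peaks lay in the first 500 kb, and the other 3.70 Mb held none.

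Over the whole spans there were 12.5 pooled peaks per Mb and 248 per Mb in the rest of the same arms, a 19.8-fold difference. Per Mb of sequence whose 50-base words occur once, the values were 26.6 and 262, a 9.87-fold difference. For thresholded peaks the differences were 42.8-fold and 21.3-fold. Genes themselves were 10.5-fold sparser in the spans, which left 1.15 pooled peaks per gene against 2.17 in the rest. Fewer genes, less single-copy sequence and fewer peaks went together in the spans, and their parts cannot be told apart here. By arm the spans held 31.0 pooled peaks per Mb on 2L, 9.79 on 3L, 2.86 on 3R and 35.9 on X. The share of single-copy words was 54.7%, 46.4%, 41.7% and 60.5% in the same order of arms. Genes per Mb numbered 24.4, 8.06, 3.33 and 33.3. Both rank the arms as the peak densities do, from 3R up to X. Pooled peaks per gene were 1.27, 1.21, 0.86 and 1.08.

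The X limit differed from the others in what lay outside it. The 500 kb outside it held 21 genes and no pooled peak, and 13.6% of its words occurred once in the reference. The first 500 kb inside the X limit had 86.4% such words, 20 genes and 27 pooled peaks. On 3L the 500 kb outside had 108 pooled peaks and the first 500 kb inside 29, with 90.7% and 74.7% single-copy words. On 3R the corresponding counts were 141 and 12, and on 2L they were 40 and 29.

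**Figure D2:**
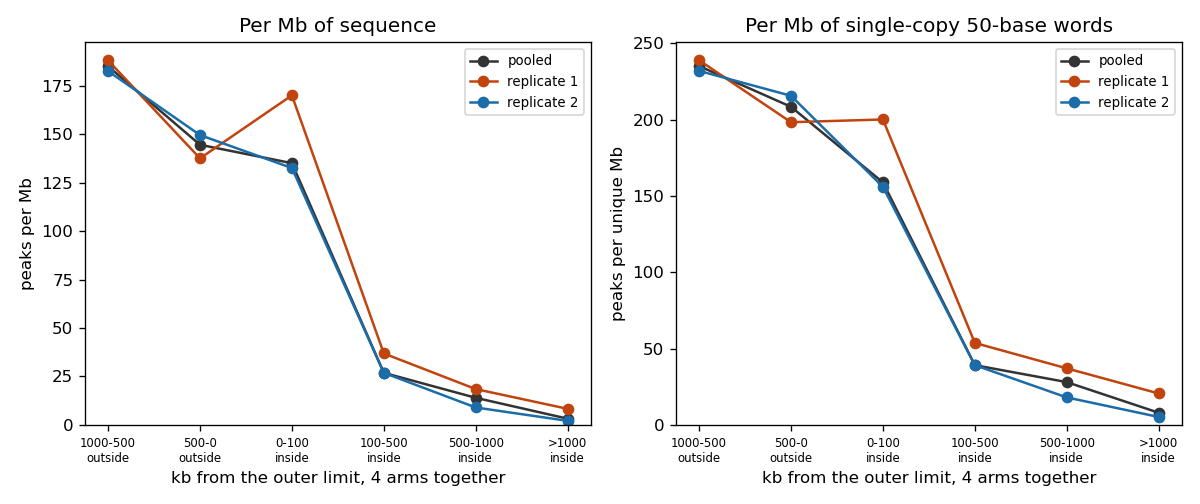
Peaks per Mb of sequence (left) and per Mb of single-copy 50-base words (right) in zones by distance in kb from the outer limit, for the pooled list and each replicate's list over the 4 arms together. The pooled density falls from 135 to 26.9 per Mb between the first 100 kb inside and the next zone, and replicate 1 is the higher replicate in every zone inside the limits.

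Fewer of these peaks were found in both replicates than of the rest of the list, and they were also weaker. A peak of replicate 1 overlapped 115 of the 151 members (76.2%, 68.8 to 82.3), beside 81.8% of the pooled peaks outside the spans. A peak of replicate 2 overlapped 99 members (65.6%, 57.7 to 72.7), beside 80.6% outside. Both did so for 67 members (44.4%, 36.7 to 52.3), beside 65.7% of the pooled peaks outside the spans (65.1 to 66.2). Median signal was 58.3 for the members and 69.8 for the others. Split by the quartiles of signal of the whole pooled list, a split chosen after seeing the data, the members lay 58, 46, 28 and 19 from the lowest to the highest quartile. Both replicates matched 13.8% of members in the lowest quartile (7.16 to 24.9) against 23.2% elsewhere, and 45.7% in the second (32.2 to 59.8) against 54.7%. In the third quartile it was 71.4% (52.9 to 84.7) against 86.5%, and in the highest 18 of 19 members against 98.1%. The gap of the pooled comparison was thus smaller at like signal, and the interval of the third quartile was the only 1 of the 4 that does not include the value elsewhere. Replicate 1 alone matched 48 members (31.8%), replicate 2 alone 32 (21.2%), and 4 matched neither (2.65%). Outside the spans these shares were 16.1%, 14.9% and 3.31%. Among the 26 members deeper than 1000 kb, 23 matched replicate 1, 9 matched replicate 2 and 6 matched both. The shares outside the spans, in the same order, were 81.8%, 80.6% and 65.7%. One such peak, 93 bp before the start of the fatty acid synthase gene FASN3, had a pooled signal of 117 and 86.3 in replicate 1 and no overlapping peak in replicate 2.

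By its own list, replicate 1 had 231 peaks in the spans and replicate 2 had 131. The ratio of 1.76 was largest on 3L, with 101 and 38 peaks, and beyond 1000 kb, with 67 and 17. In the rest of the 4 arms the ratio was 1.01. The small, largely heterochromatic chromosome 4 went the other way, with 48 peaks in replicate 1 and 518 in replicate 2. The peaks in the spans also differed in kind between the lists. Of those in replicate 1, 23.4% were at promoters, 31.6% were intergenic and their median GC was 45.5%. In replicate 2 the values were 42.0%, 9.16% and 37.5%. Outside the spans the median GC was 44.5% in replicate 1 and 41.5% in replicate 2, with 32.8% and 32.1% at promoters. The part of library composition in this difference was not tested. The leading peaks of each replicate, taken in the number of the thresholded list, included 17 in the spans in replicate 1 and 15 in replicate 2. These were 7.36% and 11.45% of each replicate's peaks in the spans, beside 20.3% of its peaks elsewhere in both replicates.

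**Figure D3:**
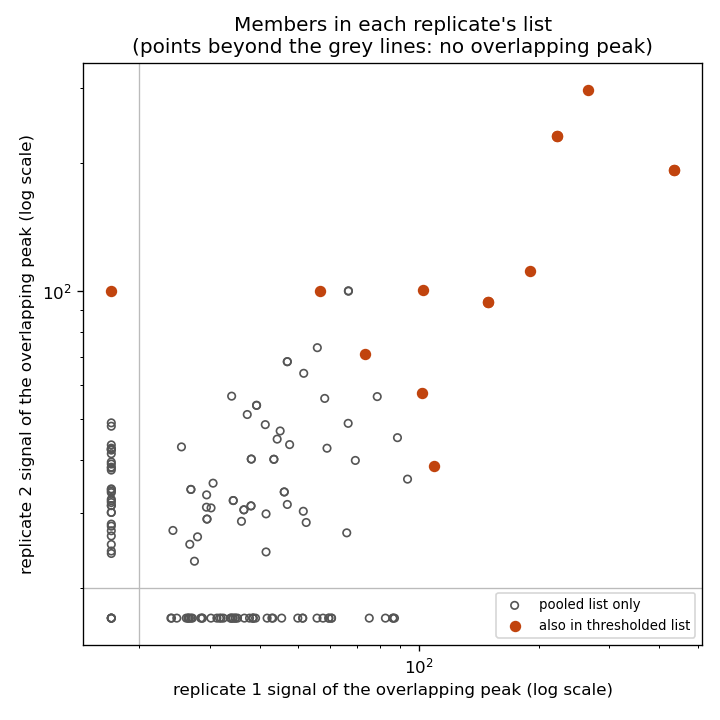
Signal value of the overlapping peak in replicate 2 against that in replicate 1, both on log scales, for the 151 members. Points left of or below the grey lines had no overlapping peak in that replicate's list and have no signal there; 13 of the 14 thresholded members (filled, with summits of one peak drawn on top of each other) lie inside both lines, and RpL10 lies left of the line for replicate 1.

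The promoter share of the members had an interval that includes the share elsewhere, and fewer of them lay in introns. Summits no farther than 500 bp from a protein-coding start numbered 60 of 151 (39.7%, 32.3 to 47.7), beside 33.7% of the pooled peaks outside the spans. Introns held 36 summits (23.8%, 17.7 to 31.2) against 41.4% elsewhere, and 23 were intergenic (15.2%, 10.4 to 21.8) against 10.9%. The pooled peaks of chromosome 4 had similar shares, with 26.0% in introns and 17.4% intergenic. Exons of genes other than protein-coding ones held 9 (5.96%, 3.17 to 10.9) against 1.79%. Several of these 9 lay close together in 1 gene, lncRNA:CR43493 within l(1)G0196, so they are not separate loci and the interval is too narrow. Of the 14 thresholded summits, 9 were promoter summits, 3 intronic, 1 in the exon of the long noncoding RNA gene and 1 intergenic. The promoter share of the 14 was 64.3% (38.8 to 83.7), an interval that includes the 55.4% of thresholded peaks outside the spans. Of those peaks outside, 32.7% were intronic and 7.06% intergenic.

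The 5 strongest members more than 2000 bp from every protein-coding start included both Mes2 intron summits. The third lay 3648 bp upstream of CG12768, with a signal of 111 and a peak in replicate 1 alone (82.5). The fourth was in a UTR of wap on X, at 109, with 69.4 and 39.9 in the replicates. The fifth lay in the FB element within the intron of nrm, an immunoglobulin-type cell adhesion gene, at 87.6, with 45.0 and 46.9 in the replicates. An annotated transposable element held the summit of 8 members (5.30%, 2.71 to 10.1), none of them thresholded. The share was 0.33% for pooled peaks outside the spans and 11.4% for those on chromosome 4. Such elements covered 15.4% of the spans and 4.01% of the rest of the same arms. INE-1 elements held 2 of the 8 summits and FB, Fw3, Max, S2, Tc1-2 and diver2 elements 1 each.

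The members sat mostly in the single-copy part of the heterochromatin. All 50-base words were unique in the 200 bp at 142 of the 151 summits (94.0%), and no member lacked unique words. The same held for 99.5% of the pooled peaks outside the spans, so summits in single-copy sequence were general to the list and slightly less common among the members. Of the windows of 200 bp that tile the spans, 28.8% were fully unique and 34.9% had no unique word. Median GC at the members was 41%, with quartiles of 35.5% and 47%, beside 43% for other pooled peaks and 39.5% for the tiling windows. How the authors treated reads that map to several places is not stated in the labels or lists, and the part of such reads in these values was not tested.

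Among the words searched on either strand in the 200 bp at the summit, GAGAG, which is bound by GAGA-type factors, was in 27.2% of members (20.7 to 34.7). Over the whole pooled list it was in 26.4%. In a window of the same size 500 bp to one side it was in 13.9% for the members and 21.5% for the whole list. It was in 8 of the 14 thresholded members (57.1%, 32.6 to 78.6), beside 30.5% of the thresholded peaks elsewhere. When the window was 100 bp it was in 3 of 14, beside 16.4% elsewhere, and also in 3 of 14 to one side. At 100 bp it was in 11.9% of all members and 14.5% of the whole list. Of the 14 summits, 3 pairs lie within 1 kb of each other. CAGCTG, an E-box, was in 12.6% of members and 10.5% of the whole list. CACACACA was in 5.96% and 7.36%. The DNA replication-related element TATCGATA was in 1 of the 151 members (0.66%, 0.12 to 3.66), an interval that includes the 1.66% of the whole list.

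Few genes of the spans had a thresholded peak at their start. Of 131 protein-coding genes, 8 did (6.11%, 3.13 to 11.6), beside 25.9% of all protein-coding genes and 26.1% of those outside the spans. The 8 were Clamp and RpL5 on 2L, CG12768, Mes2 and RpL10 on 3L, beta-Man on 3R, and CG14615 and tilB on X, which share 1 summit. With the pooled list 46 genes had a summit within 500 bp (35.1%), beside 55.8% of all protein-coding genes. In the first 100 kb, 5 of 29 genes had a thresholded summit (17.2%, 7.60 to 34.5), close to the 18.7% of the 203 genes in the 500 kb outside (14.0 to 24.6). CG12768 and Mes2 were 2 of these 5. From 100 to 500 kb it was 2 of 37 genes, from 500 to 1000 kb 1 of 36, and beyond that none of 29. Pooled summits stayed at 41.4%, 43.2% and 38.9% of genes in the 3 outer zones and were at 13.8% (5.50 to 30.6) beyond 1000 kb. On chromosome 4, 19 of 80 genes had a thresholded summit (23.8%).

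**Figure D4:**
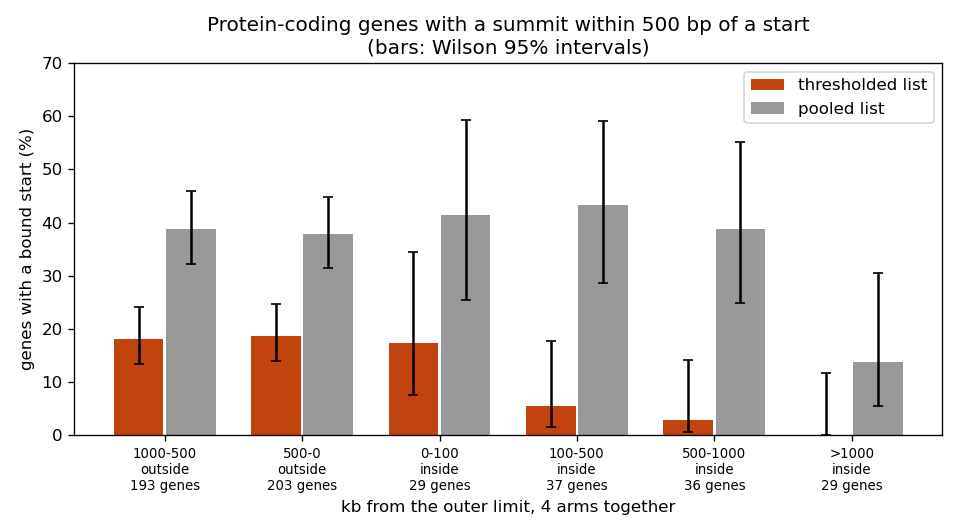
Percent of protein-coding genes with a summit within 500 bp of a start in zones by distance in kb from the outer limit, for the thresholded and the pooled list, with Wilson 95% intervals and the number of genes under each zone. The thresholded share goes from 17.2% in the first 100 kb to 0 of 29 genes beyond 1000 kb, while the pooled share is between 38.9% and 43.2% in the first 3 zones inside.

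Genes for ribosomal proteins were among the genes with a summit at the start. All 4 genes of the spans named RpL or RpS had a pooled summit, a set picked after its values were seen, so that nothing is drawn from the count. Over all genes of the spans 35.1% had a pooled and 6.11% a thresholded summit, and over all protein-coding genes 55.8% and 25.9%. RpL21 on 2L had 101 and RpL15, which lies 4367 kb inside the 3L limit, had 82.2, and both were in both replicates. Only RpL5 and RpL10 were thresholded. The mitochondrial ribosomal protein gene mRpS5, 1637 kb inside, had 59.1. In the list of translation genes, which was written from general knowledge with earlier results known, 1 of 4 in the spans was thresholded and 3 had a pooled summit, namely RpL5, RpL15 and Tim17b, a subunit of the mitochondrial protein import channel, at 52.6. eIF4B had none.

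The counts of the other lists stand beside 6.11% thresholded and 35.1% pooled for all genes of the spans, and 25.9% and 55.8% for all protein-coding genes. Chromatin and RNA factors gave 1 thresholded and 2 pooled of 8 genes, CG12768 and su(f), an mRNA 3′ end processing factor, at 64.4. Set1, a histone H3 lysine 4 methyltransferase, vtd, a cohesin subunit, the piRNA factor AGO3, Parp1, Dbp80 and Spf45 had no pooled summit at a start. Of 9 signalling, adhesion and neural genes none was thresholded. The synaptic vesicle genes stnA and stnB, which share a start, had 58.2, and cta, Snap25, nrm, alpha-Cat, Myo81F, scro and fog had no pooled summit there. For cta a summit of 83.2 lay 507 bp past the start, just beyond the 500 bp distance, with 51.4 in replicate 1 and 30.3 in replicate 2. Of 5 metabolic and transport genes lt, a vesicle-trafficking gene and a classic heterochromatic locus, had 52.9, and nvd and spok, which act in ecdysone synthesis, Gfat1 and Pzl had none. For Gfat1 a summit of 45.4 lay 596 bp past a start.

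Genes of the spans were longer than other genes, and the longest of them held no peak. Median gene length was 6.30 kb in the spans and 2.16 kb elsewhere. Of the 10 genes over 100 kb, 5 held a pooled summit anywhere in the body, and Myo81F, the longest at 1966 kb, held none. The most summits were in CG42748 on 2L with 11, l(1)G0196 on X with 8, CG12576 on X with 7 and CG12768 with 5. In CG42748 the summit 112 bp past the first start had 101, with 44.2 in replicate 1 and 44.8 in replicate 2. Another, 8.40 kb into the gene and 496 bp before an internal start, had 110, with 66.6 and 48.8 in the replicates. In all, 77 of the 131 genes held no pooled summit in the body. No count of summits in the body over all protein-coding genes stands beside these values, so nothing is drawn from them.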

How the data were processed

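Peak lists from 2 biological replicates of anti-GFP chromatin immunoprecipitation were used as deposited. Each holds a signal value per peak, deposited by the authors with no stated scaling, and the −log10 of a q-value per peak, also deposited by the authors. Replicate and pooled lists served as input to an irreproducible discovery rate threshold, which gave the thresholded list, per the labels and file names. Aligner, peak caller and threshold: not given in the sources used here. Control reads were not analysed here.

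Summits were placed on dm6 with RefSeq Release 6 sequence and the Ensembl release 115 annotation. A promoter summit lay no farther than 500 bp from the start of a protein-coding transcript. Classes then followed in the order UTR, coding exon, other exon, intron, intergenic. Peaks were matched between lists by an overlap of at least 1 base. A gene belonged to a span by its most upstream start. Unique words were those of 50 bases found once in the reference on either strand. The assignment of summits was tested on simulated positions. Python 3.11.15, numpy 2.4.6, pandas 2.3.3, scipy 1.17.1 and matplotlib 3.10.9 were used.

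With 1 group no test was made. The members and lists were chosen with earlier results of these data known. Named were CG12768, the 12 strongest thresholded members, genes with a thresholded start, list members in the spans, the 5 strongest members over 2000 bp from every start, the strongest on each arm and the 4 genes with most summits. Further genes (FucTC, FASN3, RpL21, mRpS5) were chosen after their values were seen. Alternatives changed the limits, distances, overlap, windows, lists, replicates and build.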

Additional observations from a re-analysis of the deposited data

How the results depend on the processing

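The number of members followed the limits of the spans. With each limit 500 kb nearer the centromere there were 54 members, with 1.85% thresholded, and with each 500 kb farther away there were 440, with 15.5% thresholded. In the dm3 build, where no coordinates were converted, 31 pooled peaks lay on the heterochromatic arms 2LHet, 3LHet, 3RHet and XHet. These arms were taken whole and not by the dm6 limits, so this count and the 151 are not of like sequence. On them the dm3 thresholded list had 0 peaks, replicate 1 had 99 and replicate 2 had 16. The density in the rest of the arms over that in the spans was 9.87-fold per Mb of single-copy words, and 12.9-fold to 22.6-fold by the list of 1 replicate. The thresholded share was 4.51% without the peaks within 50 kb of CG12768, an alternative chosen after seeing the data, as were the single-replicate densities. In the first 100 kb the same alternative gave 90.0 pooled and 7.50 thresholded peaks per Mb. The promoter share was 27.8% at 250 bp and 50.3% at 1000 bp, beside 25.4% and 45.2% for the rest of the list, and 23.4% to 42.0% by the list of 1 replicate. The share of genes with a bound start was 3.05% with the stronger part of the thresholded list, which holds fewer peaks by construction. The causes of the other shifts were not tested. No paired analysis was possible because there was 1 group. The lists give no read counts, so what depth limits cannot be computed.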
